A study of Caenorhabditis elegans with 2 samples.

Results

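Autosomal promoter regions of one direction are places where ETS-7 signal was called on chromosomes I to V and where the promoters within reach all point the same way. They were chosen from the authors' list of regions called on both replicates pooled. A region was taken when its summit lay from 1000 bp upstream to 200 bp downstream of the 5' end of a protein-coding transcript, when all genes reached this way were on 1 strand, and when the 500 bp to either side of the summit held no tRNA, snoRNA, snRNA, miRNA or rRNA gene. The rule found 2750 of the 11626 pooled regions, 23.7%, called members here. Of these, 2686 reach 1 gene and 64 reach 2 genes of the same strand, so that each summit has an unambiguous upstream and downstream side. No measured signal entered the rule.

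The data are from chromatin immunoprecipitation and sequencing (ChIP-seq), where an antibody pulls down a protein together with the DNA fixed to it, and that DNA is sequenced. There was 1 group of 2 biological replicates, numbered 3 and 4, both of whole hermaphrodite early embryos of the *Caenorhabditis elegans* strain OP487, collected 3 hours after synchronization by egg bleaching. The strain is 1 transgenic line that carries ETS-7 with a C-terminal GFP-FLAG tag, named ETS-7-eGFP elsewhere in the labels. An antibody against GFP was used, although the antibody entry of both samples reads ets-7. The labels and file descriptions do not say whether the untagged ets-7 gene was still present or which promoter drove the fusion. Whole embryos mix cell types, so a signal present in few cells and a weak signal in many cells cannot be told apart. With 1 group of 2 samples no test over samples is possible, and regions are not replicates. Differences are therefore given as shares, mostly with exact (Clopper-Pearson) 95% intervals, which cover the counting of regions alone. For the main results the same value from each replicate's own list stands beside them. Neighbouring genes, noncoding genes nearby, base composition, single-copy sequence, inverted repeats and gene lists are given for the pooled list alone.

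ETS proteins are transcription factors with a winged helix-turn-helix domain that contacts a GGAA core, usually within a longer sequence that begins with ACC or CC. In many animals they act at promoters of widely expressed genes as well as at tissue-specific enhancers. Worm promoters are compact, genes often follow each other on 1 strand, and trans-splicing of leader sequences means that an annotated 5' end can lie downstream of the site where transcription starts. A promoter of one direction, unlike a divergent one shared by a pair of genes, lets sequence and position be read relative to a single gene.

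The sequences that follow belong to members of high signal that hold 1 of the 3 motifs on which the results turn. All are from the ce11 build (WBcel235), written 5' to 3' on the strand of the gene, with the motif or its reverse complement in capitals. The first set holds the extended ETS octamer ACCGGAAG and shows that in all 3 regions it runs opposite to the gene. The coordinates are chrV:7748349-7748406, plus strand, for *fbxl-5*, chrV:6053459-6053516, minus strand, for *seip-1*, and chrV:19719453-19719510, plus strand, for *Y116F11A.6*.
fbxl-5: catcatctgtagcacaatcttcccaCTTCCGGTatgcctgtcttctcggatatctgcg
seip-1: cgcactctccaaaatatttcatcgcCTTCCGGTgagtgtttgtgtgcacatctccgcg
Y116F11A.6: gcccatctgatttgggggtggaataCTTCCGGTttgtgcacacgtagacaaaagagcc

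The second set holds the ETS core hexamer CCGGAA without the octamer. The coordinates are chrIII:3500001-3500056, minus strand, for *M01F1.9*, chrII:7815583-7815638, plus strand, for *cki-2*, and chrIII:2780432-2780487, plus strand, for *Y71H2AM.6*. The hexamer runs opposite to the gene in the first 2 and along it in *Y71H2AM.6*.
M01F1.9: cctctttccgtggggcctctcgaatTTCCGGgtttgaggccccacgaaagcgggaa
cki-2: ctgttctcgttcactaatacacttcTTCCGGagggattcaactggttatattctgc
Y71H2AM.6: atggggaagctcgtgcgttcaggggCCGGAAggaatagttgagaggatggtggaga

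The third set holds no CCGGAA within 100 bp of the summit but the GA repeat hexamer GAGAGA, in each case as TCTCTC on the strand of the gene. The coordinates are chrIII:8043918-8043973 for *K12H4.5*, chrIII:3867468-3867523 for *rpl-3* and chrIV:6756496-6756551 for *usp-4*, all on the plus strand. The first of these is the member of highest signal, and its match lies 11.5 bp from the summit, whereas those of *rpl-3* and *usp-4* lie 74.5 and 90.5 bp from it.
K12H4.5: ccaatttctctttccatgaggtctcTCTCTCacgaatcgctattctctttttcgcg
rpl-3: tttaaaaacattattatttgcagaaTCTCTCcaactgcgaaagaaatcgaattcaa
usp-4: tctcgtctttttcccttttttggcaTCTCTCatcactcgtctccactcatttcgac

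The signal of a region is the authors' value, on a scale that the sources used here do not give. Read counts per region or library are not in the lists, and the sequencing depth is therefore unknown. The authors' optimal list, selected from the pooled and replicate lists by irreproducible discovery rate analysis, holds the pooled regions of highest signal, without exception. It thus marks the high end of 1 ranking. Members in it are called optimal members, and the rest other members. The list of replicate 3 held 16227 regions and that of replicate 4 held 15533, of which 3666 and 3659 met the same rule. Nearly all pooled regions have a fixed width, and 2747 of the 2750 members are 480 bp wide with the summit at the centre. Merged where they overlap, the members form 2498 loci, 120 of them with an optimal member.

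The optimal list held 123 members, 4.47% of them (3.73% to 5.31%), against 5.12% of all pooled regions. Divergent promoters on the autosomes held 85 optimal regions of 675, 12.6% (10.2% to 15.3%). One-direction promoters on X held 34 of 670, 5.07% (3.54% to 7.02%), an interval that includes the members' share. Autosomal regions outside promoters held 105 of 5525, 1.90% (1.56% to 2.30%). The members thus stood below divergent promoters and above regions outside promoters, and near the share over all regions.

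The order of these classes was the same when as many regions as the optimal list holds were taken from the top of each replicate's own list. Members gave 133 of 3666 in replicate 3 and 133 of 3659 in replicate 4, 3.63% in each. Over all regions of the replicates' lists the share was 3.67% in replicate 3 and 3.83% in replicate 4. These shares are lower than in the pooled list because the same number of regions was taken from longer lists. Divergent promoters gave 9.57% in replicate 3 and 10.3% in replicate 4, X promoters of one direction 3.79% and 4.29%, and regions outside promoters 1.28% and 1.52%. The median pooled signal was 34.9 in members, 40.8 in divergent promoters, 37.2 in X promoters of one direction and 33.7 outside promoters, so most members differed little in signal from regions elsewhere. Within the members, the share in the optimal list ran from 4.08% on chromosome I to 5.02% on chromosome III, with overlapping intervals on all 5 autosomes.

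**Figure D1:**
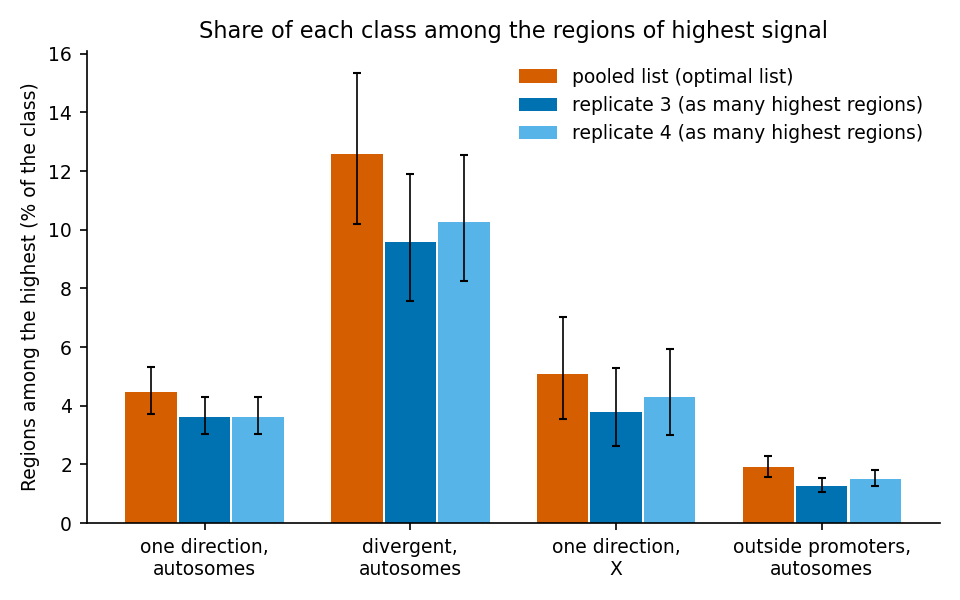
Percent of the regions of each class that are among the highest of a list, for the pooled list (the optimal list) and for as many of the highest regions of each replicate; error bars are exact 95% intervals over regions. Members, at 4.47% in the pooled list, stand below divergent promoters at 12.6% and above regions outside promoters at 1.90%, in the same order in both replicates.

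The 20 members of highest pooled signal had values from 131 to 675, and *eel-1* and *rps-24* have 2 each. The 3 highest stood far above the rest and are also the only members not 480 bp wide. The region at chrIII:8043786-8044140, 530 bp upstream of *K12H4.5* and intergenic, had a signal of 344 in replicate 3 and 333 in replicate 4. The region at chrIII:3499889-3500182 had 233 in replicate 3 and 263 in replicate 4. It lies in an intron of *M01F1.8* and 977 bp upstream of *M01F1.9*, close to the far edge of the promoter window. The region of *gap-3*, which encodes a GTPase-activating protein for Ras, had 214 in replicate 3 and 264 in replicate 4, lies 929 bp upstream and holds ACCGGAAG. Each of these 3 regions exceeded all others of the 20 in both replicates.

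Below them, pooled signals ran without a gap. The region of *W01D2.3* had 122 in replicate 3 and 94.6 in replicate 4, and its summit lies within 300 bp of the noncoding RNA genes *W01D2.7* and *W01D2.9*. Noncoding genes of kinds that the rule does not bar lay that near to 18 optimal members, 14.6% (8.91% to 22.1%), and to 276 other members, 10.5% (9.36% to 11.7%). The intergenic region 284 bp upstream of *rpl-3*, which encodes a protein of the large ribosomal subunit, had 95.7 in replicate 3 and 101 in replicate 4. The region of *fbxl-5*, an F-box gene, lies 456 bp upstream of a 5' end and in an intron of a longer transcript of that gene, and had 85.4 in replicate 3 and 97.6 in replicate 4. These values differ between replicates by less than the 1.41-fold spread over the 1635 members found in both replicates' lists.

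Regulators of the cell cycle and of chromatin were among the rest. The region 913 bp upstream of *cki-2*, which encodes an inhibitor of cyclin-dependent kinases, had 71.8 in replicate 3 and 96.9 in replicate 4. The region in an intron of *egl-27*, which encodes a protein related to the MTA subunits of histone deacetylase complexes, had 80.1 in replicate 3 and 56.2 in replicate 4. *egl-27* has 14 annotated 5' ends and 7 member regions, the most of any gene, with pooled signals from 31.1 to 135, and 1 of the 7 is optimal. Both genes hold CCGGAA at the highest of their regions.

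Among genes of membranes, synapses and splicing, the region 252 bp upstream of *seip-1*, which encodes the lipid droplet protein seipin, had 78.5 in replicate 3 and 66.4 in replicate 4. The region 288 bp upstream of *elks-1*, which encodes an active zone protein of synapses, had 64.0 in replicate 3 and 67.2 in replicate 4. The region 183 bp upstream of *plrg-1*, which encodes a homolog of a spliceosome-associated protein, had 81.3 in replicate 3 and 71.8 in replicate 4. At *Y71H2AM.6* the summit lies in an intron of *cox-6B*, and the signals were 64.8 in replicate 3 and 82.9 in replicate 4.

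Part of the 20 highest members lies in sequence that is not unique. Sequence was called single-copy where a 36-mer occurs once in the genome, 36 bp being an assumed read length. Of the 480 bp regions of *eel-1*, which encodes a HECT-type ubiquitin ligase, 30.8% and 52.4% of 36-mers were single-copy, and both overlap the same region in each replicate, with signals of 111 in replicate 3 and 114 in replicate 4. The 2 regions of *rps-24*, which encodes a protein of the small ribosomal subunit, were 64.3% and 60.9% single-copy and also share 1 region per replicate, with 94.3 in replicate 3 and 92.1 in replicate 4. The region of *Y62F5A.12* and the Mediator subunit gene *mdt-8* was 39.1% single-copy. Its signals were 77.5 in replicate 3 and 48.3 in replicate 4. Among all members, 5 optimal members (4.07%) and 15 other members (0.571%) had under 50% single-copy 36-mers. With members of at least 90% single-copy sequence alone, 4.19% were optimal.

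**Figure D2:**
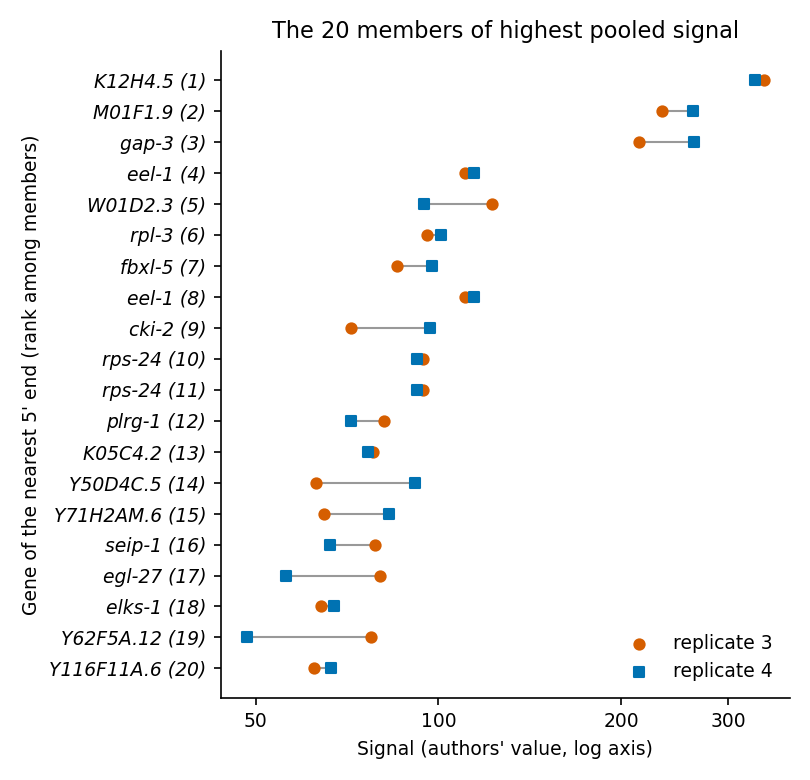
Signal in replicate 3 (circles) and replicate 4 (squares) at the 20 members of highest pooled signal, on a log axis, named by the gene of the nearest 5' end. K12H4.5, M01F1.9 and gap-3 lie above 200 in both replicates and all others at 122 or less; rows with the same gene name share 1 region per replicate.

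Replicate 3's list held 2192 members and that of replicate 4 held 2147, by an overlap of at least 1 bp. Both lists held 1635 members, 59.5%, while 557 were in replicate 3's list alone, 512 in replicate 4's alone and 46 in neither. All 123 optimal members were in both lists, as the selection of that list favours. Over the 1635 members, the median log2 ratio of replicate 3 to replicate 4 was 0.12. Its SD was 0.50, which is a spread of 1.41-fold, and 88 members differed by more than 2-fold. Over the optimal members the median was -0.05 and the SD 0.47, a 1.38-fold spread. These ratios compare values that were scaled separately by the authors.

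The order of signals repeated only in part. Across the 1635 members the Spearman correlation was 0.48, and across the optimal members 0.31, as a description over regions that share libraries. Optimal members are those of highest pooled signal, a selected range, so their correlations cannot be set directly against those of all members. Pearson correlations of log2 signals were 0.65 across the 1635 members and 0.64 across the optimal members. Without the 3 highest members, a setting added after the data were seen, they were 0.62 and 0.36, and the Spearman correlations 0.48 and 0.26. The 123 members of highest signal in replicate 3 shared 71 with those of replicate 4, 57.7% (48.5% to 66.6%). Of the optimal members, 99 were among as many of the highest regions of replicate 3 as the optimal list holds and 103 among those of replicate 4, with a median rank of 345 in replicate 3 and 322 in replicate 4.

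Among optimal members, the largest differences lay at 3 promoters per direction. Signals higher in replicate 4 were found at *sup-26*, with 25.7 in replicate 3 and 71.98 in replicate 4, at *ndx-6*, with 25.8 in replicate 3 and 63.8 in replicate 4, and at *Y76B12C.6*, with 24.9 in replicate 3 and 58.6 in replicate 4. Signals higher in replicate 3 were found at *C09E7.4*, with 59.0 in replicate 3 and 25.2 in replicate 4, at *vps-60*, a gene of the endosomal sorting machinery, with 56.2 in replicate 3 and 27.7 in replicate 4, and at *C47E8.11*, which shares its region with *gasr-8*, with 61.4 in replicate 3 and 31.7 in replicate 4. The 3 lower values in replicate 3 ranked from 2825 to 3175 among its 16227 regions, and the 3 lower values in replicate 4 from 1263 to 2365 among its 15533. All 6 were thus much lower in 1 replicate. They were still above the medians of the members in both lists, 22.9 in replicate 3 and 20.8 in replicate 4.

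**Figure D3:**
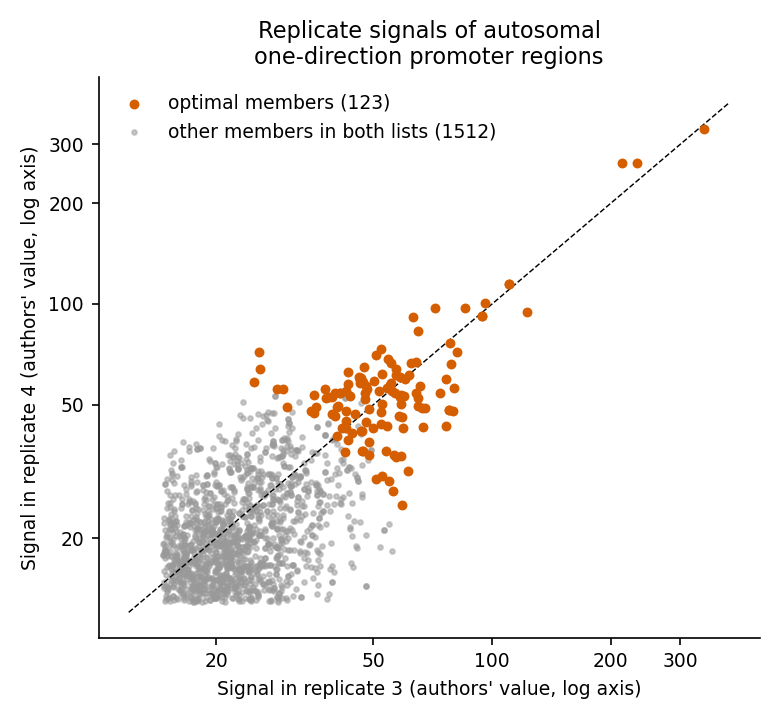
Signal of each member in replicate 3 against replicate 4, both on log axes, for the 123 optimal members and the 1512 other members found in both lists; the dashed line marks equal values. The 3 highest members lie near the line, and the others spread around it with an SD of the log2 ratio of 0.50 over all 1635.

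Summits of members lay at a median of 284 bp upstream of the nearest coding 5' end, and 83.8% lay upstream. The window reaches 1000 bp upstream but only 200 bp downstream, so evenly placed summits would lie mostly upstream too. The upstream share over all members therefore does not show a preferred side. Optimal members lay at a median of -311 bp (quartiles -543 and -159.5) and other members at -281 bp (quartiles -580 and -71.5). In the 400 bp before the 5' end lay 72 of 123 optimal members, 58.5% (49.3% to 67.3%), and 1154 of 2627 other members, 43.9% (42.0% to 45.9%). Downstream of the 5' end lay 3 optimal members, 2.44% (0.506% to 6.96%), and 436 other members, 16.6% (15.2% to 18.1%). The higher regions were therefore placed more narrowly before the nearest 5' end, and few lay downstream of it. A summit upstream of that end can still lie inside a longer transcript. Of all optimal members, including those at or downstream of the nearest 5' end, 26, 21.1%, lay inside a gene whose promoter they are in.

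The same split held in each replicate. Of the 133 members among the highest regions of each list, 3.76% lay downstream in replicate 3 and 2.26% in replicate 4, against 17.6% of the rest in replicate 3 and 17.1% in replicate 4. Read the other way, 38 of 579 members more than 200 and up to 400 bp upstream were optimal, 6.56% (4.69% to 8.90%), and 4 of 445 from the 5' end to 200 bp downstream were, 0.899% (0.245% to 2.29%). By rank, the share downstream was 2.44% in ranks 1 to 123, 5.69% in ranks 124 to 246, 11.4% in ranks 247 to 500 and 15% to 19.9% beyond.

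Somewhat fewer regions lay just outside the promoter window than just inside it, at both ends. In the 50 bp inside its upstream edge lay 82 regions, 6 of them optimal, and in the 50 bp outside it 67 regions that meet the rest of the rule, 4 of them optimal. Around the downstream edge the counts were 104 inside, 0 of them optimal, and 80 outside, 1 of them optimal. Median signals of these 4 bins ran from 32.5 to 33.2.

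**Figure D4:**
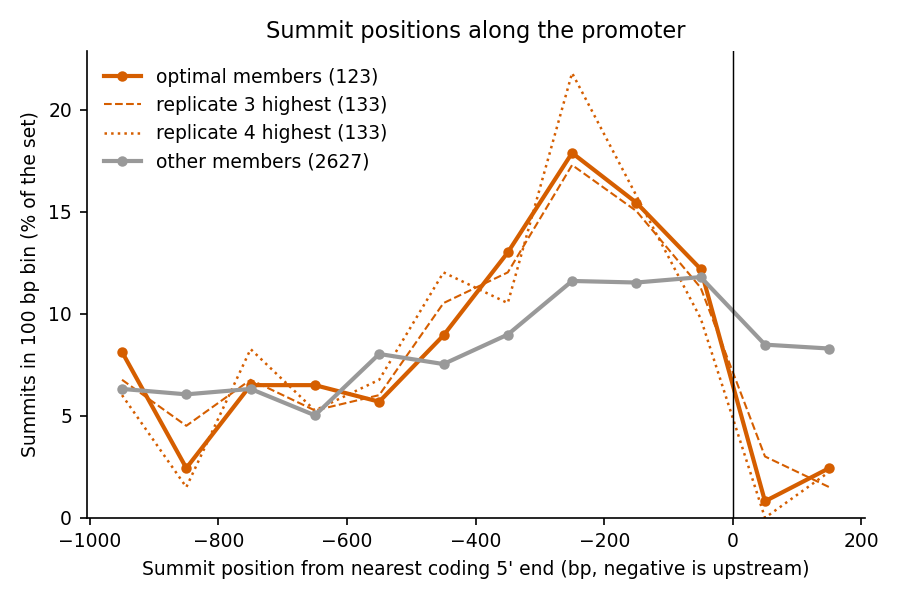
Percent of summits in each 100 bp bin from 1000 bp upstream to 200 bp downstream of the nearest coding 5' end, for optimal members, for the highest members of each replicate's list (dashed and dotted) and for other members. Optimal members and both replicates' highest members peak from 300 to 200 bp upstream and fall to few downstream, where other members hold 16.6%.

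Most optimal members had intergenic summits. They numbered 91 of 123, 74.0% (65.3% to 81.5%), against 1269 of 2627 other members, 48.3% (46.4% to 50.2%). Introns held 26 optimal members, 21.1% (14.3% to 29.4%), and 627 other members, 23.9% (22.2% to 25.5%). Coding exons held 2 optimal members, 1.63% (0.198% to 5.75%), and 478 other members, 18.2% (16.7% to 19.7%). The 5' UTR held 3 optimal and 140 other members, and the 3' UTR 1 optimal and 113 other members. The single optimal member in a 3' UTR lies in *ulp-2*, 220 bp upstream of the proteasome subunit gene *pbs-3*, with 43.1 in replicate 3 and 39.2 in replicate 4.

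Intergenic summits made up 72.9% of the highest members in replicate 3 and 77.4% in replicate 4, against 45.2% and 46.9% of the rest. Of intergenic members 6.69% were optimal (5.42% to 8.15%), and of those in coding exons 0.417% (0.0505% to 1.497%). By replicate these shares were 5.73% and 0.701% in replicate 3, and 5.87% and 0.145% in replicate 4. Coding exons and introns within a promoter belong to the gene itself or to a neighbour. Of optimal members 6 lay inside another coding gene, 4.88% (1.81% to 10.3%), and of other members 458, 17.4% (16.0% to 18.9%).

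The gene that lies behind the promoter was read for each member. It points the same way as the promoter for 64 optimal members, 52.0% (42.8% to 61.1%), and for 1665 other members, 63.4% (61.5% to 65.2%). The distance from the 5' end back to that gene had a median of 2415 bp for optimal members and 2128 bp for other members. Optimal members thus had somewhat fewer tandem neighbours, with intervals that just fail to overlap.

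The ETS core hexamer CCGGAA, searched on both strands within 100 bp of the summit, was present at 24 optimal members, 19.5% (12.9% to 27.6%), and at 330 other members, 12.6% (11.3% to 13.9%). Windows of the same length were placed at the members' median distance, 284 bp upstream of the most upstream 5' end of 13016 autosomal coding genes whose promoters meet the same rule, and 7.24% of them held it. Over all pooled regions it was 14.1%, in autosomal divergent promoters 8.89%, in X promoters of one direction 9.40% and in autosomal regions outside promoters 17.2%. Among the optimal regions of these classes it was 15.6%, 12.9%, 8.82% and 37.1%. The share in optimal regions outside promoters was thus above that in optimal members. The shares of optimal and other members have overlapping intervals. In the replicates' lists the highest members held it at 18.05% in replicate 3 and 19.5% in replicate 4, and the rest at 10.8% and 12.1%. Matches on both strands overlap where the site is the palindrome TTCCGGAA, found at 2 optimal members and 22 members in all.

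The extended octamer ACCGGAAG was rarer, and its share fell with rank. It was present at 9 optimal members, 7.32% (3.40% to 13.4%), at 62 other members, 2.36% (1.81% to 3.02%), and in 0.407% of the promoter windows. Over all pooled regions it was at 3.31%, in divergent promoters at 1.63% and in autosomal regions outside promoters at 4.00%, against 2.58% of all members. In the replicates' lists it was at 6.77% of the highest in replicate 3 and 7.52% in replicate 4, and at 1.67% and 2.27% of the rest. By rank it ran from 7.32% in ranks 1 to 123 and again in ranks 124 to 246, through 5.51% in ranks 247 to 500 and 3.20% in ranks 501 to 1000, to 1.30% and 1.33% in the last bins. The decline therefore does not stop at the edge of the optimal list. The hexamer, whose matches include those of the octamer, had 19.5% in the first bin and 11.02% to 14% in all later ones, with no order among them.

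The highest members with the octamer were *gap-3*, *fbxl-5*, *seip-1* and *Y116F11A.6*, described above or shown at the start. The region of *Y116F11A.6* lies 52 bp upstream of the 5' end and had 62.5 in replicate 3 and 66.5 in replicate 4. The octamer also occurs 70 bp upstream of *tbx-38*, a T-box transcription factor gene of the early embryo, within 100 bp of the summit of a region with 48.0 in replicate 3 and 44.4 in replicate 4. In optimal members 9 of 10 octamer matches run opposite to the gene, and in other members 37 of 63. For the hexamer 11 of 34 matches ran along the gene in optimal members, 32.4% (17.4% to 50.5%), and 245 of 507 in other members, 48.3% (43.9% to 52.8%). These intervals overlap, and the counts of optimal members are small.

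Matches to CCGGAA were denser near the summit in optimal members, and only slightly so in other members. Per 100 optimal members, the 40 bp on either side of the summit held 6.50 and 8.94 matches, and 40 bp bins farther out 2.44 to 5.69. Per 100 other members these values were 4.34 and 4.07, and 2.59 to 4.19. They have no intervals, and the counts of optimal members are small. Of the 62 matches within 240 bp of the summit of optimal members, 19 lay within 40 bp, 30.6%, and of 1089 matches in other members 221 did, 20.3%. The hexamer also differed with place. Among intronic members it was at 9 of 26 optimal members, 34.6% (17.2% to 55.7%), and at 63 of 627 others, 10.05% (7.81% to 12.7%). Among intergenic members it was at 13 of 91 optimal members, 14.3% (7.83% to 23.2%), and at 150 of 1269 others, 11.8% (10.1% to 13.7%). In the replicates' lists the highest intronic members held it at 6 of 24 in replicate 3, 25%, and 9 of 26 in replicate 4, 34.6%, against 10.4% and 13.1% of the other intronic members. The shares of optimal and other members were thus further apart in introns than in intergenic sequence, though with only 26 optimal members. Coding exons among other members held it at 18.8%.

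Motifs of other classes were searched the same way, on both strands, as descriptions of sequence and not as sites. GAGAGA, a repeat known in animals from GAGA-type elements, was at 40 optimal members, 32.5% (24.4% to 41.6%), at 22.4% of other members (20.8% to 24.0%) and in 12.1% of promoter windows. GGGCGG, the GC box that Sp and KLF factors bind, was at 21 optimal members, 17.1% (10.9% to 24.9%), at 8.07% of other members (7.06% to 9.18%) and in 3.70% of promoter windows. Both were more frequent in the highest members of each replicate. GAGAGA was at 32.3% of them in replicate 3 and 36.1% in replicate 4, against 18.9% and 19.6% of the rest, and GGGCGG at 15.04% and 15.8%, against 7.73% and 6.66%.

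Other sequences ran the opposite way. GATAAG, a form of the GATA site of endoderm and epidermis regulators, was at 2 optimal members, 1.63% (0.198% to 5.75%), at 8.07% of other members (7.06% to 9.18%) and in 8.47% of promoter windows. In the replicates' lists it was at 3.76% of the highest in replicate 3 and 1.504% in replicate 4, against 7.70% and 7.32% of the rest. TATAAA, the TATA box, was at 13.8% of optimal members, 18.5% of other members and 23.9% of promoter windows. TTTCAG, the consensus of splice acceptors and trans-splice sites, was at 19.5%, 28.7% and 33.4% of these. CACGTG, the E-box, ran the same way as GAGAGA and GGGCGG, at 7.32%, 3.73% and 3.30%. GGTTCG, which is part of the internal promoter of tRNA genes, was at 1.63%, 4.15% and 2.77%. Its direction differed between the replicates' lists. It was at 4.51% of the highest and 3.48% of the rest in replicate 3, and at 3.01% and 4.48% in replicate 4.

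Base composition moved with these shares. The windows around summits had a median G+C content of 43.8% in optimal members, 39.8% in other members and 33.3% in promoter windows. In windows of 35 to 50% G+C alone, a range chosen after the data were seen, CCGGAA was at 20 of 84 optimal members, 23.8% (15.2% to 34.3%), at 13.9% of 1551 other members and in 9.74% of 5072 promoter windows. ACCGGAAG was at 9 optimal members, 10.7% (5.02% to 19.4%), at 2.45% of others and in 0.532% of promoter windows. GGGCGG was at 16.7%, 8.45% and 6.11%, and GATAAG at 1.19%, 8.32% and 9.07%. GAGAGA was at 28.6% of optimal members (19.2% to 39.5%), 24.8% of others and 17.0% of promoter windows. TATAAA was at 11.9% (5.86% to 20.8%), 15.2% and 15.7%. Between optimal and other members the differences in CCGGAA, ACCGGAAG and GATAAG were thus larger in this range than over all members, and those in the other 3 motifs smaller. What base composition adds to the shares over all members was not tested.

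**Figure D5:**
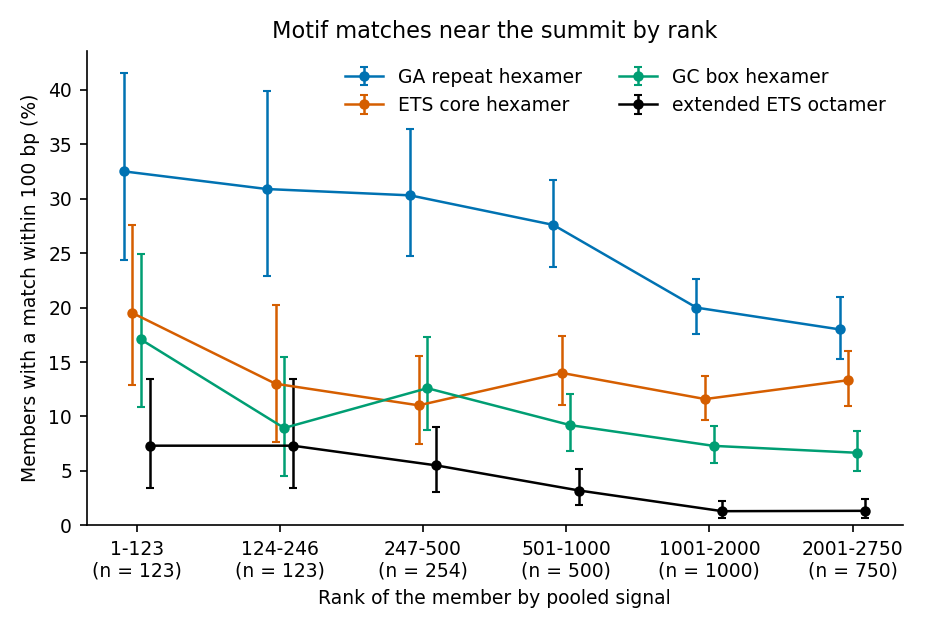
Percent of members with a match on either strand within 100 bp of the summit, by rank of pooled signal, for the ETS core hexamer CCGGAA, the extended ETS octamer ACCGGAAG, the GA repeat hexamer GAGAGA and the GC box hexamer GGGCGG; error bars are exact 95% intervals over regions. The octamer falls from 7.32% in the first 2 bins to 1.33% in the last, GAGAGA from 32.5% to 18%, and the core hexamer is at 11.02% or more in every bin.

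The members reach 2375 of the 17242 autosomal protein-coding genes, 13.8%, and optimal members reach 127, 0.737%. These shares are the background for the gene lists, which were read by gene name and are described by counts alone. A gene in a divergent promoter has no member by the rule, so a count does not show whether a gene has a region at all. Among genes with a member the median of the highest signal per gene was 35.8.

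Cytosolic ribosomal protein genes had members more often than the background, and the intervals of other protein synthesis lists reached it. Of 76 cytosolic ribosomal protein genes 18 had a member, 23.7% (14.7% to 34.8%), with a median signal of 46.1, and 4 had an optimal one. After *rpl-3* and *rps-24* the next was *rps-28*, a small subunit gene, with 79.6 in replicate 3 and 47.8 in replicate 4. Of 32 translation factor genes 9 had a member, 28.1% (13.7% to 46.7%), and 2 an optimal one, both for subunits of initiation factor 3. The region 225 bp upstream of *eif-3.B* had 56.3 in replicate 3 and 35.5 in replicate 4. The region of *eif-3.I*, in an intron of that gene and with CCGGAA, had 38.5 in replicate 3 and 52.7 in replicate 4. Of 32 aminoacyl-tRNA synthetase genes 7 had a member, 21.9% (9.28% to 39.97%), and 1 an optimal one, that of the lysyl enzyme *kars-1*, with 50.9 in replicate 3 and 30.1 in replicate 4. Of 70 mitochondrial ribosomal protein genes 14 had a member, 20% (11.4% to 31.3%), and 0 an optimal one. The highest was *mrpl-15*, with 22.7 in replicate 3 and 40.8 in replicate 4.

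For genes of oxidative phosphorylation, protein degradation, splicing, folding and histones, the intervals of the shares with a member included the background. Of 57 oxidative phosphorylation genes 10 had a member, 17.5% (8.75% to 29.9%), and their median signal of 68.1 was the highest of the 19 lists. The highest of them, *cox-5A*, a subunit gene of cytochrome c oxidase, was optimal, with 47.0 in replicate 3 and 58.5 in replicate 4, and *cox-5B*, of the same complex, followed with 28.0 in replicate 3 and 47.2 in replicate 4. Of 33 proteasome genes 4 had a member, 12.1% (3.40% to 28.2%), of 30 splicing genes 2, 6.67% (0.818% to 22.1%), of 54 chaperone genes 7, 12.96% (5.37% to 24.9%), and of 68 histone genes 5, 7.35% (2.43% to 16.3%). Among these 4 lists *pbs-3* had the 1 optimal member.

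Genes of cell division and chromatin stood above the background in the share with a member. Of 49 kinetochore, centrosome and spindle genes 17 had one, 34.7% (21.7% to 49.6%), and 1 was optimal. That region lies 48 bp upstream of the nearest 5' end, reaches *sas-4*, needed for centriole assembly, and *F10E9.11*, and had 59.0 in replicate 3 and 46.1 in replicate 4. The next was *tbg-1*, the gamma-tubulin gene, with 46.9 in replicate 3 and 33.1 in replicate 4. Its region also reaches *rpac-19*, whose 5' end is nearer to the summit. It was followed by *knl-1*, a kinetochore scaffold gene, with 24.4 in replicate 3 and 32.4 in replicate 4. Of 49 genes of the DREAM complex and chromatin regulation 14 had a member, 28.6% (16.6% to 43.3%), led by the histone methyltransferase gene *set-4*, with 29.4 in replicate 3 and 35.1 in replicate 4. Of 46 DNA replication and cell cycle genes 12 had one, 26.1% (14.3% to 41.1%), among them *cki-2* and *cdc-48.1*, the AAA ATPase gene, with 47.9 in replicate 3 and 56.8 in replicate 4.

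Of 72 early zygotic transcription factor genes 17 had a member, 23.6% (14.4% to 35.1%), with a median signal of 40.98, and 1 had an optimal one. After *tbx-38* came the homeobox genes *ceh-20*, with 45.7 in replicate 3 and 29.6 in replicate 4, and *ceh-13*, with 30.2 in replicate 3 and 39.9 in replicate 4. Of 24 maternal polarity and germ plasm genes 4 had a member, 16.7% (4.74% to 37.4%), the highest being *par-3*, with 40.6 in replicate 4 and no region in replicate 3. Of 65 membrane traffic genes 12 had a member, 18.5% (9.92% to 30.03%), with a median signal of 48.7, and 2 had an optimal one, *vps-60* and *vps-22*. The region of *vps-22*, which encodes an ESCRT subunit, had 47.1 in replicate 3 and 36.5 in replicate 4. It also reaches *C27F2.9*, whose 5' end is nearer to the summit.

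Chemoreceptor genes had members less often than the background. Of 1331 such genes 44 had one, 3.31% (2.41% to 4.41%), and 0 were optimal. Of 106 neuropeptide and insulin genes 11 had a member, 10.4% (5.30% to 17.8%). Of 161 genes with names of cuticle collagens and related body shape genes 16 had one, 9.94% (5.79% to 15.6%). The intervals of both shares include the background. The highest of those 16, *dpy-27*, with 46.9 in replicate 3 and 27.2 in replicate 4, encodes a condensin-like protein of dosage compensation and not a collagen. The highest collagen gene was *col-142*, with 35.004 in replicate 3 and 20.4 in replicate 4. Median signals of these 3 lists, from 33.7 to 36.4, were near the 35.8 of all genes.

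Of 5 autosomal ETS genes 2 had a member, 40% (5.27% to 85.3%), against 13.8% of all autosomal coding genes. An optimal member was at 0 of the 5, 0% (0% to 52.2%), against 0.737%. Both intervals include the background. At *ets-6* the summit lies 6 bp downstream of the 5' end, in the 5' UTR, with 27.6 in replicate 3 and 30.2 in replicate 4, and at *lin-1*, an ETS factor that acts downstream of Ras in vulval development, the region lies in an intron, holds CCGGAA, and had 17.1 in replicate 3 and no region in replicate 4. The gene of the tagged factor, *ets-7*, on chromosome V, had no member, and 1 pooled region outside promoters, with a signal of 39.3, lies within 1000 bp of it.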

How the data were processed

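ChIP-seq of ETS-7-eGFP was measured in 2 biological replicates of 1 group. Per the deposited descriptions, the authors called regions against a control for each replicate and for both pooled, at a relaxed threshold, as input for irreproducible discovery rate (IDR) analysis. The deposited value used is the signal of each region. Aligner, peak caller and versions, scaling of the signal and read depth: not given in the sources used here. The ce10 lists and control libraries were not analysed here, and 0 columns of per-sample values were left out.

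Summits were placed on ce11 with Ensembl release 115 gene models. A replicate's signal at a member is the highest of its regions that overlap by at least 1 bp. No test was possible. Instead, the rule was applied to each replicate's own list, with as many of its highest regions standing for the optimal list. Named genes are those at the 20 highest members, the highest of each autosome, the 3 highest with ACCGGAAG, 3 per direction with the largest replicate difference among optimal members, ETS genes with a member and up to 3 per gene list. Sequences are printed for the 3 highest members per motif outside chromosome I. *usp-4* and *egl-27*'s count of regions were singled out after values were seen. The members and lists were chosen with earlier results of these data known. The base composition range, single-copy and intergenic subsets were added after seeing the data. Scripts ran under Python 3.11.15 with pandas 2.3.3, NumPy 2.4.6, matplotlib 3.10.9 and SciPy 1.17.1, and were tested on simulated data.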

Additional observations from a re-analysis of the deposited data

How the results depend on the processing

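The number of members stayed within 1.5 times of 2750 in the 6 alternatives tried, from 1903 to 3666. Of the 46 alternatives to the other 8 results, 11 moved a value by less than its spread and 35 by more. The spread was 1 SD between the replicates' lists or, for the SD of the log2 ratio and the share of the highest members common to both replicates, the 95% interval. For the optimal share that SD was only 0.00491 percentage points, and every alternative to it moved by more. Some alternatives also measure another quantity, such as ACCGGAAG in place of CCGGAA. The count of 35 is therefore not a measure of dependence on processing alone. With 1 replicate left out, as many of the highest regions of the remaining list as the optimal list holds stood for that list. Of members 3.63% were among them (lowest and highest, 3.62793% and 3.63487%). Over all regions the share was 3.67% in replicate 3's list and 3.83% in replicate 4's, against 5.12% in the pooled list. The median distance was -310.5 to -304 bp, the share upstream 82.9% to 83.3% and the share with CCGGAA 11.1% to 12.4%. Of the members among the highest 18.05% to 19.5% held CCGGAA. The share of matches on the gene's strand was 47.6% to 50.2%, so that without replicate 4 it passed from below 50% to above it. With a window of -500 to +100 bp these were 6.04% optimal, -192 bp, 87.1% upstream, 10.98% and, for optimal members, 13.9% with CCGGAA. Without the small RNA filter they were 5.36%, -291 bp, 84.3% and, for optimal members, 16.8% with CCGGAA. The optimal share was 4.37% with a small RNA distance of 1000 bp, 4.804% over merged loci, 1.93% for the upper part of the optimal list, cut at its middle rank, and 4.19% over single-copy members. CCGGAA was at 7.60% of members and 14.6% of optimal members within 50 bp, at 11.99% and 14.3% of those with intergenic summits, and at 14.4% and 23.8% in the middle range of base composition. Among optimal members it was at 26.4% in that upper part, 15.8% where no coding exon overlaps and 21.3% over single-copy members. ACCGGAAG was at 2.58% of members and 7.32% of optimal ones. Among optimal members 96.7% of summits lay upstream, and the SD of the log2 ratio was 0.47. Depth is unknown, so it cannot be said which members were too shallow to rank, and 2 samples of 1 transgenic line give no test between classes of regions.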

Other observations

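Genes with 5 or more member regions, chosen after their values were seen, were *egl-27* with 7, *lit-1*, the gene of a Nemo-like kinase of the Wnt pathway, with 5, and *noca-1*, a gene of noncentrosomal microtubule arrays, with 5. The regions of *lit-1* had pooled signals from 37.1 to 66.3 and those of *noca-1* from 32.7 to 49.7, and 0 of these 10 regions were optimal. *lit-1* has 7 annotated 5' ends and *noca-1* has 9, each with a promoter window of its own. In all, 370 of the 2375 genes had more than 1 member region.

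The window of *M01F1.9* shown in the report holds an inverted repeat around its CCGGAA match. Perfect inverted repeats with arms of 10 bp and a loop of 3 to 30 bp, searched within 100 bp of the summit, were found at 3 of the 20 highest members, 15% (3.21% to 37.9%), at 5 of 123 optimal members, 4.07% (1.33% to 9.23%), at 101 of 2627 other members, 3.84% (3.14% to 4.65%), and in 651 of 13016 promoter windows, 5.00% (4.63% to 5.39%). Optimal members thus held such repeats at a share close to those of other members and of promoter windows.

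GAGAGA ran mostly opposite to the gene at members of both kinds. Of 84 matches in optimal members 29 were on the strand of the gene, 34.5% (24.5% to 45.7%), and of 1188 in other members 342 were, 28.8% (26.2% to 31.5%). Several matches can come from 1 repeat, so matches are not independent. GGGCGG was on the strand of the gene in 40% of the 25 matches in optimal members and in the same share of those in other members.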
